A study of Mus musculus with 6 samples.

Results

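NF-κB is a family of dimeric transcription factors that inhibitory IκB proteins hold in the cytoplasm. Inflammatory receptors switch on the IκB kinase complex, which marks IκB for degradation and frees the dimers to enter the nucleus, where they also transcribe the genes of their own inhibitors, so that the signal limits itself. In chondrocytes the pathway is known for driving cytokine responses and matrix-degrading enzymes. The 10 genes described here are the subunit genes *Nfkb1*, *Nfkb2*, *Rela* and *Relb*, the inhibitor genes *Nfkbia*, *Nfkbib*, *Nfkbie* and *Nfkbiz*, the ubiquitin-editing feedback inhibitor *Tnfaip3* and the kinase gene *Ikbkb*. They were taken by symbol from the 41388 genes in the count tables, and all 10 passed the filter on low counts, as did 14533 genes in all. *Nfkbia* was picked because its genotypes did not overlap in these same samples, so its genotype difference is given as a description with no test.

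The samples were primary chondrocytes from femoral head cartilage of male B6/129 mice aged 21 days, 3 homozygous for the *Postn* tm1Jmol allele (*Postn*-/-) and 3 wild-type from the same breeding (*wt*, B6129SF2/J in the methods), kept for 2 days in medium with fetal bovine serum, left untreated and read by RNA-seq. *Postn* encodes periostin, a matricellular protein, and the mutation is carried in the germline, so the cells carried it before they were cultured. Total counts ran from 20587640 to 26572260 per sample, at which 3 counts correspond to between 0.113 and 0.146 CPM (counts scaled to the library total), a floor that covers counting error only. The targeted gene *Postn* was at 4.66, 4.27 and 5.67 normalized CPM in *Postn*-/- chondrocytes against 10.1, 10.3 and 6.90 in *wt*, and which part of the transcript the knockout removes was not analysed here. The cartilage genes *Col2a1* and *Acan* were at 8271 to 18081 and at 1604 to 3764 normalized CPM. Normalized CPM here means counts scaled by TMM, a factor for library size and composition.

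The promoters of the inhibitor genes that NF-κB is known to transcribe are shown first because they carry the sequence that its dimers read. The RefSeq promoter table (GRCm38.p6) holds windows from 250 bases before to 50 bases after a gene's start for 6 of the 10 genes, namely *Nfkb2*, *Rela*, *Nfkbia*, *Nfkbib*, *Nfkbie* and *Tnfaip3*. A κB-type motif was searched on both strands as GGG, 3 bases of any kind and TTCC, so that it reads GGAA, 3 bases of any kind and CCC when it lies on the other strand. At least 1 match was found for 4 of these 6 genes, against 6.31% of all 27025 genes in the table. By window, 7 of 9 held a match, against 5.56% of all 32851 windows. *Rela* and *Nfkbib* had none, which says only that these letters are not in their windows. Each stretch below is written 5′ to 3′ on the gene's own strand, and capitals mark the match. For *Nfkbia*, *Nfkbie* and *Tnfaip3* the 120 bases before the start are printed, from chr12:55492648-55492767 (minus strand), chr17:45555580-45555699 (plus strand) and chr10:19015411-19015530 (minus strand). For *Nfkb2*, where an annotated exon lies in this stretch, 30 bases around each of the matches before its first start are printed, from chr19:46304689-46304718 and chr19:46304716-46304745 (plus strand).
*Nfkbia*: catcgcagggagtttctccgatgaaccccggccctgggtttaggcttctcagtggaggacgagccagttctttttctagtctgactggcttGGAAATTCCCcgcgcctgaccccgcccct
*Nfkbie*: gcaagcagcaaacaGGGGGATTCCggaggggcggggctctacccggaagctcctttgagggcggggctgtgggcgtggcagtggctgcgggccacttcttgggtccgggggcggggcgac
*Tnfaip3*: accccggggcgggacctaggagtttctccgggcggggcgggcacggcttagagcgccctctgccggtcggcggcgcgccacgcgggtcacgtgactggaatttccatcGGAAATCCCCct
*Nfkb2*, match farther from the start: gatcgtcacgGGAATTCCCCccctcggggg
*Nfkb2*, match nearer to the start: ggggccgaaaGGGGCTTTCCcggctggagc

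Counted from the start, where -1 is the base just before it, the match of *Nfkbia* spans -29 to -20, that of *Nfkbie* -106 to -97 and that printed for *Tnfaip3* -12 to -3, with another at 34 to 43 after its start. Those printed for *Nfkb2* span -38 to -29 and -11 to -2. The table also holds 2 further starts for *Nfkb2*, whose windows share a match and of which 1 holds another, and 1 for *Tnfaip3* with a match of its own. The matches at these starts are not printed. A match is a sequence description, and binding was not measured in these samples.

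*Nfkbia*, which encodes IκBα, the inhibitor that NF-κB resynthesizes fastest after activation, was higher in the *Postn*-/- chondrocytes. The gene lies on the minus strand at chr12:55489411-55492647 of GRCm38, the build that the exon coordinates in the tables match. Its reads numbered 972, 954 and 809 in *Postn*-/- mice against 701, 571 and 601 in *wt* mice. After normalization these were 39.1, 38.8 and 38.6 CPM in *Postn*-/- against 26.95, 25.8 and 28.8 CPM in *wt*. Every *Postn*-/- sample lay above every *wt* sample, and the 3 *Postn*-/- values were nearly equal. With 3 samples in each genotype, the *Postn*-/- mean was 38.8 ± 0.253 CPM and the *wt* mean 27.2 ± 1.497 (SD), a log2 fold change of 0.51, or 1.43-fold. On the log2 scale its spread within genotypes was 0.056, smaller than for all but 2.7% of the genes tested in the same decile of expression. These values are those it was picked for, and 13.6% of all genes tested also had genotypes that did not overlap, 7.03% with *Postn*-/- higher and 6.57% with it lower. On the log2 scale the gap between genotypes was 0.42 for *Nfkbia* and 0.36 for *Nfkb2*. The smallest overlaps were those of *Rela* and *Ikbkb*, at -0.09 each, and of *Nfkbib*, at -0.11. An overlap is also small where all samples lie close together, so it does not rank how nearly the genotypes were apart. In bulk RNA, a larger share of cells that express a gene and more of its RNA in each cell cannot be told apart.

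**Figure D1:**
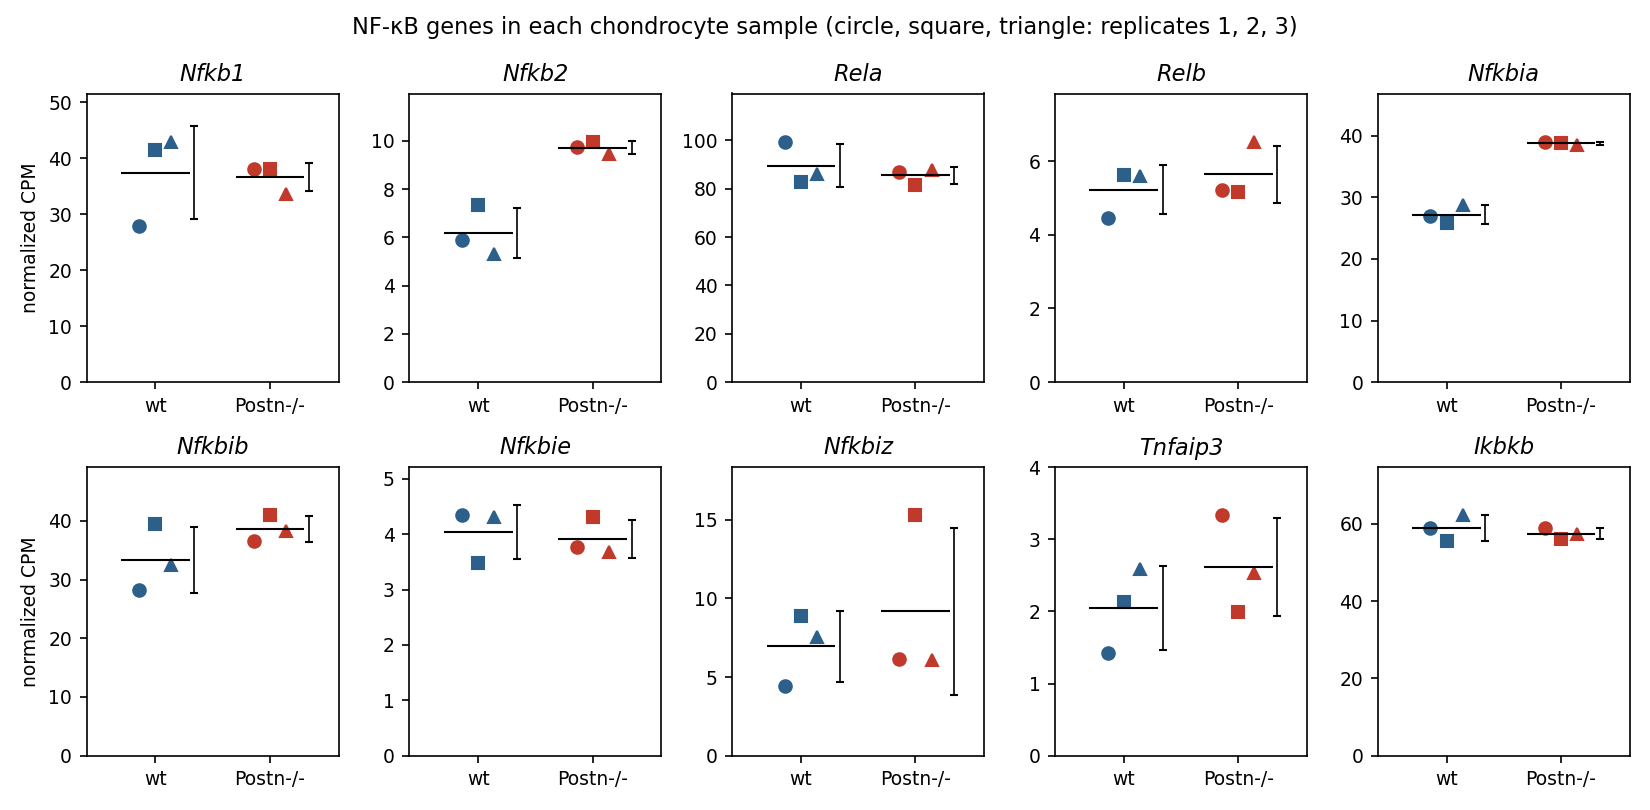
Normalized CPM of the 10 genes in each sample, with *wt* in blue and *Postn*-/- in red. Horizontal lines are means and the vertical bars beside them SDs over 3 samples. The genotypes are apart for *Nfkbia* and *Nfkb2*, and 1 *Postn*-/- sample stands above the others for *Nfkbiz*.

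*Nfkb2* was the other of the 10 genes whose genotypes did not overlap. It encodes p100, which holds RelB-containing dimers in the cytoplasm and is processed to p52, and it is itself a known transcriptional target of NF-κB. *Nfkb2* (plus strand, chr19:46304737-46312090) was at 9.72, 9.96 and 9.44 normalized CPM in *Postn*-/- against 5.88, 7.33 and 5.32 in *wt*. The lowest *Postn*-/- sample was thus above the highest *wt* sample. The log2 fold change was 0.65, or 1.57-fold, with a 95% interval of 0.24 to 1.06 (edgeR's quasi-likelihood test, unadjusted p = 0.00653, adjusted p = 0.717 by the Benjamini-Hochberg method over all 14533 genes). The difference was therefore larger than the spread within genotypes but did not pass the adjusted threshold. With each sample left out in turn the log2 fold change of *Nfkb2* ran from 0.55 to 0.79, where its sign could not turn because the genotypes did not overlap. The counts behind it, 111 to 245 reads per sample, are smaller than those of *Nfkbia*. Of the 50-base words in its GENCODE M21 transcripts 14.9% also occur in *Psd*, on the other strand, and in a non-coding RNA gene, while in the counted exons the overlap with *Psd* is 16 bases. The library kit does not mark strand, so reads of overlapping genes cannot be fully told apart there.

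The subunits that form the common NF-κB dimers were at like levels in the genotypes. *Rela*, whose product p65 carries the transactivation domain of the classical dimer, lies on the plus strand at chr19:5637483-5648130. It was at 87.0, 81.5 and 87.8 normalized CPM in *Postn*-/- against 99.4, 82.7 and 86.1 in *wt*, so the genotypes overlapped and *wt* replicate 1 was the highest. Its log2 fold change of -0.07 had a 95% interval of -0.31 to 0.18 (adjusted p = 0.885 from edgeR's test), which leaves out changes beyond 0.805-fold and 1.13-fold. *Nfkb1* (minus strand, chr3:135584655-135691547) encodes p105, the precursor of p50 and an inhibitor in its own right. It was at 38.01, 38.1 and 33.6 normalized CPM in *Postn*-/- against 27.8, 41.4 and 42.9 in *wt*. The *Postn*-/- samples sat between the lowest and the highest *wt* samples, and *wt* replicate 1 alone was low. The log2 fold change was -0.03 (95% interval -0.43 to 0.37, adjusted p = 0.97 from edgeR's test). *Relb* (minus strand, chr7:19606217-19629438), the partner of p52 in the alternative pathway, was at 5.22, 5.17 and 6.53 normalized CPM in *Postn*-/- against 4.46, 5.61 and 5.61 in *wt*. Its genotypes overlapped, with a log2 fold change of 0.11 (95% interval -0.35 to 0.57, adjusted p = 0.897 from edgeR's test). Thus among the 4 subunit genes *Nfkb2* stood apart by genotype, and whether its difference exceeds that of the other 3 was not tested.

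The inhibitors other than *Nfkbia* overlapped between genotypes. *Nfkbib*, which encodes IκBβ, an inhibitor that binds p65 dimers and is less tied to NF-κB's own activity, lies on the minus strand at chr7:28758251-28767512. It was at 36.6, 41.0 and 38.4 normalized CPM in *Postn*-/- against 28.3, 39.4 and 32.5 in *wt*. Only *wt* replicate 2 reached into the *Postn*-/- range. The log2 fold change was 0.21 (95% interval -0.11 to 0.54, adjusted p = 0.731 from edgeR's test). It was 0.35 without *wt* replicate 2 and 0.10 without *wt* replicate 1. The exons of *Nfkbib* overlap those of *Ccer2* on the other strand over 311 bases and those of *Sirt2* over 42 bases, where reads of these genes may not be told apart. *Nfkbie* (plus strand, chr17:45555716-45563169), which encodes IκBε, the inhibitor known for a delayed response, was at 3.78, 4.31 and 3.67 normalized CPM in *Postn*-/- against 4.34, 3.48 and 4.31 in *wt*. The ranges lay over each other, and the log2 fold change was -0.05 (95% interval -0.51 to 0.42, adjusted p = 0.961 from edgeR's test).

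*Nfkbiz* encodes IκBζ, an atypical nuclear IκB that is induced by interleukin-1 and Toll-like receptor signals and is needed for a second wave of NF-κB targets. It lies on the minus strand at chr16:55811375-55838899. It was at 6.15, 15.3 and 6.10 normalized CPM in *Postn*-/- against 4.46, 8.87 and 7.52 in *wt*. *Postn*-/- replicate 2 stood far above the other 5 samples, and the remaining *Postn*-/- samples lay within the *wt* range. The log2 fold change of 0.41 had a wide interval, -0.55 to 1.36 (adjusted p = 0.814 from edgeR's test), and without *Postn*-/- replicate 2 it was -0.18. Its spread within genotypes was 0.645 on the log2 scale, larger than for 93.2% of the genes in its decile of expression and the largest of the 10 genes.

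*Tnfaip3* (minus strand, chr10:19000910-19015657) encodes A20, which removes activating ubiquitin chains upstream of the kinase complex. It was the lowest of the genes, with 37 to 83 reads per sample. It was at 3.34, 1.99 and 2.53 normalized CPM in *Postn*-/- against 1.42, 2.13 and 2.59 in *wt*. The genotypes overlapped, with *Postn*-/- replicate 1 highest and *wt* replicate 1 lowest. The log2 fold change was 0.36 (95% interval -0.35 to 1.08, adjusted p = 0.777 from edgeR's test), an interval that still holds a 2.11-fold increase. It was 0.148 without *Postn*-/- replicate 1, 0.153 without *wt* replicate 1 and 0.56 without *wt* replicate 3. *Ikbkb* (minus strand, chr8:22659212-22706589) encodes IKKβ, the kinase that phosphorylates IκB proteins. It was among the steadiest, at 59.1, 56.2 and 57.3 normalized CPM in *Postn*-/- against 59.0, 55.5 and 62.3 in *wt*. Its spread within genotypes was 0.064 on the log2 scale and its log2 fold change was -0.04 (95% interval -0.25 to 0.18, adjusted p = 0.935 from edgeR's test).

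**Figure D2:**
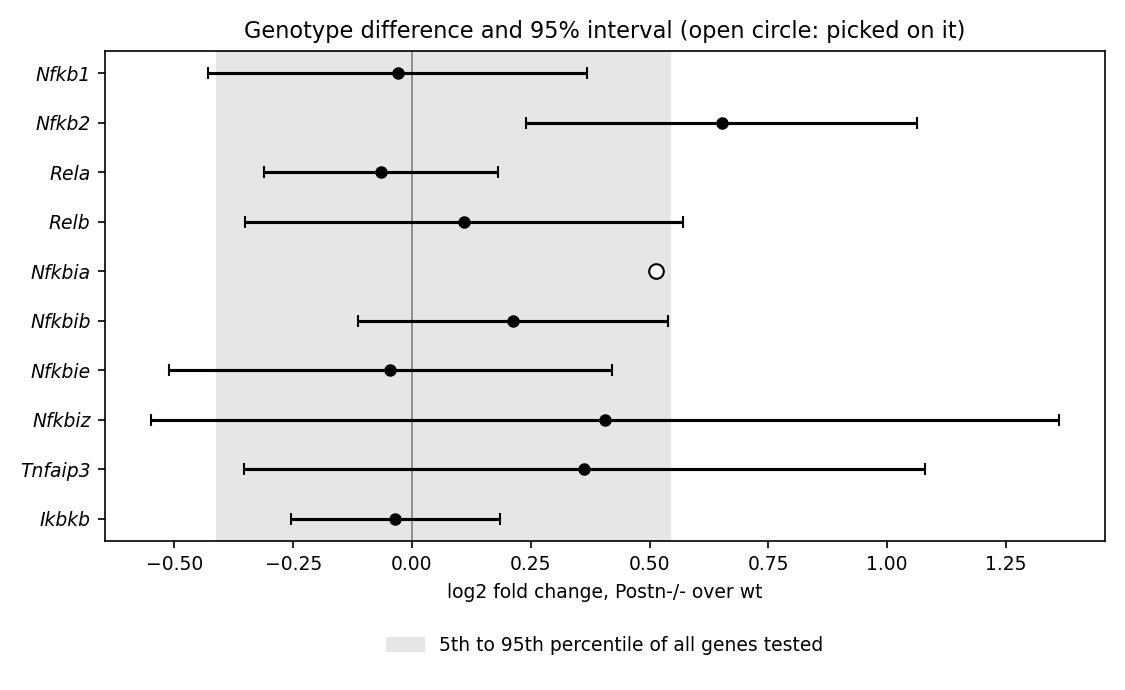
Log2 fold change of each gene, *Postn*-/- over *wt*, with its 95% interval from the edgeR fit. *Nfkbia* is drawn as an open circle without an interval because it was picked on this difference, and the grey band spans the 5th to 95th percentiles of all genes tested, -0.41 to 0.54. The interval of *Nfkb2* lies above 0, and the intervals of the other 8 genes cross it.

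Counted together, 6 of the 10 genes had a positive and 4 a negative log2 fold change, with a median of 0.16 against 0.0042 over all genes tested. Without *Nfkbia* the median of the other 9 genes was 0.11. Of these 9 genes, 1 had an unadjusted p up to 0.05 in edgeR's test, *Nfkb2*, higher in *Postn*-/-, against 6.3% of all genes tested (3.95% higher and 2.35% lower). At an adjusted p up to 0.05 there were 0 of the 9 by edgeR, by DESeq2 and by the voomWithQualityWeights model of limma, against 0.0138% of all genes tested (2 genes) by edgeR. *wt* replicate 1 was the lowest sample for 5 of them and the highest for 2, while over all genes tested it was the lowest for 26.1% and the highest for 24.6%. Without *wt* replicate 1, the *Postn*-/- range of *Nfkb1* lay wholly below the *wt* range, in a setting of 5 samples where 22.3% of all genes had genotypes apart. Without *wt* replicate 2 the genotypes were apart for 4 of the 10 genes, with *Nfkbib* higher and *Nfkbie* lower in every *Postn*-/- sample, against 27.2% of all genes in that setting. For *Nfkbie* the nearest samples of the genotypes were equal at the precision given above, 4.31 CPM. There *Nfkbib* joined *Nfkb2* at an unadjusted p up to 0.05 in edgeR's test, against 8.71% of all genes.

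To compare the genes with each other, levels were taken per kilobase of exon length in the count tables. *Rela* was the most abundant, with a mean of 31.5 ± 1.27 normalized CPM per kilobase in *Postn*-/- and 32.9 ± 3.26 in *wt* (SD over 3 samples). *Nfkbia* followed at 24.6 ± 0.160 in *Postn*-/- and 17.2 ± 0.949 in *wt*, and *Nfkbib* at 17.8 ± 1.02 and 15.4 ± 2.59. The lowest *Rela* sample was above the highest *Nfkbia* sample, while the ranges of *Nfkbia* and *Nfkbib* overlapped, with *Nfkbia* higher in 5 of 6 samples. *Nfkb1* came next at 7.66 ± 0.534 in *Postn*-/- and 7.82 ± 1.74 in *wt*, below *Nfkbib* in all 6 samples. *Ikbkb*, *Nfkb2*, *Nfkbie*, *Nfkbiz* and *Relb* had means over all samples from 3.05 down to 1.398 normalized CPM per kilobase, and each overlapped its neighbour in this order. *Tnfaip3* was last at 0.323, below *Relb* in all 6 samples. The levels and their order depend on the length used, and the level of *Ikbkb* moved most. Its exons sum to 19078 bases in the tables, whereas its longest coding transcript has 3977 bases, and with this length it would be at 14.6 normalized CPM per kilobase, between *Nfkbib* and *Nfkb1*. With the same change of length *Relb* moved from 1.398 to 2.46, above *Nfkb2*, *Nfkbiz* and *Nfkbie*, and *Tnfaip3* moved from 0.323 to 0.527 but remained last.

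**Figure D3:**
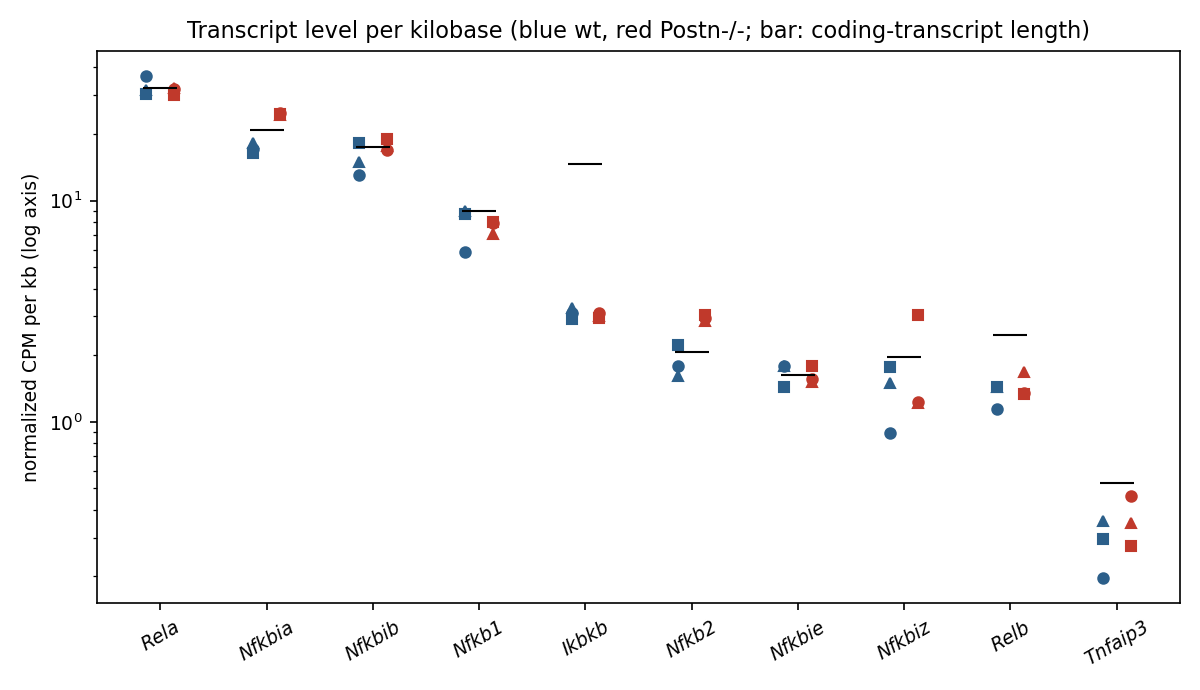
Level per kilobase of exon length in each sample, on a log axis, ordered by the mean. Blue points are *wt*, red points *Postn*-/-, and black bars give the mean over 6 samples per kilobase of the longest coding transcript. *Rela* lies at the top and *Tnfaip3* at the bottom, and the bar moves most for *Ikbkb*.

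Ratios between genes of the same sample do not depend on how the libraries were scaled. The level of *Nfkbia* per kilobase relative to *Rela* was 0.773, 0.820 and 0.756 in the *Postn*-/- samples and 0.467, 0.538 and 0.576 in the *wt* samples. The summed level of the inhibitor genes *Nfkbia*, *Nfkbib* and *Nfkbie* relative to the summed level of the 4 subunit genes was 0.975, 1.07 and 0.994 in *Postn*-/- and 0.703, 0.841 and 0.801 in *wt*. In both ratios every *Postn*-/- sample lay above every *wt* sample. The subunit sum itself was 43.5 ± 1.04 normalized CPM per kilobase in *Postn*-/- and 44.0 ± 1.31 in *wt* (SD over 3 samples), and the inhibitor sum was 44.0 ± 1.10 and 34.3 ± 2.13. *Nfkbia* made up 57.3%, 54.3% and 56.0% of the inhibitor sum in *Postn*-/- and 53.6%, 45.5% and 52.1% in *wt*, so these ratios contain the difference on which it was picked and were not tested. *Rela* made up 70.9% to 73.6% of the subunit sum in *Postn*-/- and 71.2% to 80.7% in *wt*.

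**Figure D4:**
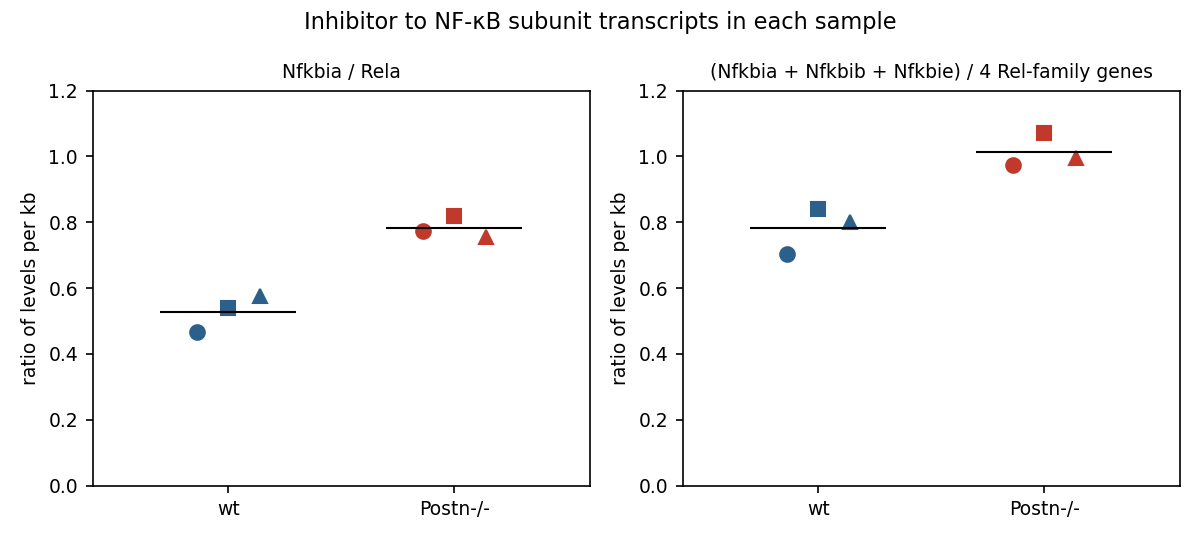
Ratios of levels per kilobase in each sample, for *Nfkbia* over *Rela* on the left and for 3 inhibitor genes over 4 subunit genes on the right. Horizontal lines are means over 3 samples. The *Postn*-/- samples, at 0.756 to 0.820 and at 0.975 to 1.07, lie above the *wt* samples in both panels.

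The rest of the pathway was read from lists of 123 genes, of which 108 were tested. An unadjusted p up to 0.05 in edgeR's test was reached by 10 of these, 9 higher and 1 lower in *Postn*-/-, beside 6.3% of all genes tested (3.95% higher and 2.35% lower). At an adjusted p up to 0.05 there were 0, by edgeR. The median log2 fold change was 0.13, and 73 genes were positive and 35 negative. Over all genes tested the median was 0.0042, with 7376 positive and 7157 negative. Without *Postn*-/- replicate 2 the count at an unadjusted p up to 0.05 was 6 of 104 against 7.73% of all genes, and 4 of the 6 were higher. Without *wt* replicate 3 it was 6 of 107 against 6.14%, and all 6 were higher. In both settings the share was no longer above that of all genes. In the other settings with a sample left out it stayed above. The count was 8 of 107 against 6.02% without *Postn*-/- replicate 1 and 10 of 106 against 2.98% without *Postn*-/- replicate 3. It was 9 of 106 against 5.44% without *wt* replicate 1 and 11 of 108 against 8.71% without *wt* replicate 2.

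Among 18 receptor genes, *Tlr2*, a Toll-like receptor that activates NF-κB, was at 30.2, 20.6 and 24.5 normalized CPM in *Postn*-/- against 17.03, 13.6 and 16.9 in *wt*. Its genotypes did not overlap, with a log2 fold change of 0.66 (edgeR's test, unadjusted p = 0.00545, adjusted p = 0.717). *Il17ra*, the interleukin-17 receptor subunit, was also higher in each *Postn*-/- sample, at 26.1 to 30.7 against 14.7 to 25.6 normalized CPM (adjusted p = 0.717 from edgeR's test). These were the only 2 of the 18 receptors without overlap, a share below the 13.6% of all genes tested (7.03% with *Postn*-/- higher). The same 2 had an unadjusted p up to 0.05 in edgeR's test, against 6.3% of all genes. Beside *Tlr2*, the most abundant receptors per length were the tumour necrosis factor receptor *Tnfrsf1a*, the TWEAK receptor *Tnfrsf12a*, the lymphotoxin receptor *Ltbr* and *Tlr4*. Their log2 fold changes were 0.10, -0.02, 0.31 and 0.12 in this order. The ligands were scarce. *Tnf* was counted with 0, 0 and 1 reads in *Postn*-/- and 0, 0 and 3 in *wt*, and *Il1b* with 1, 2 and 2 reads and 0, 1 and 0, all at or below the 3-count floor, so no genotype difference was detectable at this depth. Of 12 genes in the ligand list 4 were tested, and their values are *Il33* at a log2 fold change of 0.40, *Tnfsf12* at -0.11, the interleukin-1 receptor antagonist *Il1rn* at -0.25 and the decoy receptor *Tnfrsf11b* at -0.26.

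Between receptors and kinases, 31 adaptor and kinase genes were tested, with a median log2 fold change of 0.08. *Irak2* and *Irak3*, a kinase of the interleukin-1 receptor complex and its inhibitory relative, were higher in every *Postn*-/- sample. Genotypes did not overlap for 3 of the 31 genes, all 3 higher. Over all genes tested 13.6% did not overlap, 7.03% with *Postn*-/- higher. *Irak3* was at 5.67, 5.21 and 4.10 normalized CPM in *Postn*-/- against 2.61, 3.53 and 3.40 in *wt* (log2 fold change 0.65, adjusted p = 0.717 from edgeR's test), and the log2 fold change of *Irak2* was 0.38. *Rbck1*, a subunit of the linear ubiquitin ligase, had a log2 fold change of 0.40 with overlapping genotypes. The abundant adaptors *Tollip*, *Myd88*, *Tradd* and *Tab1* had log2 fold changes of 0.15, 0.14, 0.23 and -0.16. The remaining family genes *Rel*, *Bcl3*, *Nfkbid* and *Nfkbil1* were at 0.381 to 4.92 normalized CPM with log2 fold changes from -0.34 to 0.24. Of 18 genes in the list of other feedback regulators 0 had an unadjusted p up to 0.05 in edgeR's test, against 6.3% of all genes tested, with 9 positive and 9 negative and a median of 0.04. That list also holds *Skp1a*, *Cul1*, *Cops2*, *Btrc* and *Fbxw11* of the ubiquitin ligase machinery that removes IκB, and its abundant members *Skp1a*, *Cops2*, *Tax1bp1*, *Cul1* and *Tnip1* had log2 fold changes from -0.10 to 0.13. Of these, *Cul1* was higher and *Cops2* lower in every *Postn*-/- sample, by 0.08 and -0.10.

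The list of 40 NF-κB target genes, of which 33 were tested, had a median log2 fold change of 0.37 against 0.0042 over all genes, with 27 positive and 6 negative. At an unadjusted p up to 0.05 in edgeR's test 4 were higher, *Cxcl1*, *Mmp3*, *Icam1* and *Csf1*, and 1 was lower, *Myc*, where 3.95% of all genes tested were higher and 2.35% lower. Genotypes did not overlap for 3 of the 33 targets, 2 higher and 1 lower, a share below the 13.6% of all genes tested (7.03% higher and 6.57% lower). *Csf1*, the macrophage growth factor, was at 452, 590 and 425 normalized CPM in *Postn*-/- against 295, 353 and 376 in *wt*, with no overlap (log2 fold change 0.52, adjusted p = 0.717 from edgeR's test). *Mmp3*, which encodes stromelysin, was at 118, 153 and 44.9 in *Postn*-/- against 26.4, 31.1 and 57.3 in *wt*, where *Postn*-/- replicate 3 fell below *wt* replicate 3. *Cxcl1*, a neutrophil chemokine, was at 3.46, 13.8 and 2.29 in *Postn*-/- against 1.77, 2.99 and 1.82 in *wt*, led by *Postn*-/- replicate 2. The adhesion gene *Icam1* was at 65.5 to 108 in *Postn*-/- against 45.1 to 69.3 in *wt*. *Myc* was lower in every *Postn*-/- sample, at 110 to 131 against 138 to 174. The collagenase gene *Mmp13* was the most abundant target per length, at 922, 4309 and 439 in *Postn*-/- against 897, 4163 and 1319 in *wt* (log2 fold change -0.17, adjusted p = 0.966 from edgeR's test). *Ier3*, *Lcn2* and *Bcl2l1*, the other abundant targets per length, had log2 fold changes of 0.12, 0.45 and 0.25 with overlapping genotypes.

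Many targets shared the sample in which *Nfkbiz* was highest. *Postn*-/- replicate 2 was the highest sample for 18 of the 33 tested targets (54.5%), and over all genes tested it was the highest for 15% of them. In the other lists of over 10 tested genes it was the highest for 38.9% of receptors, 41.2% of immediate early genes, 22.2% of other feedback regulators and 16.1% of adaptors and kinases. *wt* replicate 1 was the lowest sample for 14 of the 33 targets (42.4%), against 26.1% of all genes. *Saa3*, an acute-phase gene, was at 15.1, 105 and 4.003 normalized CPM in *Postn*-/- against 1.92, 34.4 and 11.7 in *wt*, and the chemokine *Cxcl5* was at 1.05, 12.6 and 0.953 and at 0.154, 2.94 and 2.06. Among the *wt* samples, replicate 2 was the highest for *Nfkbiz*, *Saa3*, *Cxcl5* and *Mmp13*, so for these genes the high sample had the same number in each genotype. Over the 33 targets *wt* replicate 2 was the highest of all samples for 5 (15.2%) and the lowest for 8 (24.2%). Over all genes tested these shares were 18.4% and 17.8%. *Saa3* and *Cxcl5* were named after their values were seen.

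**Figure D5:**
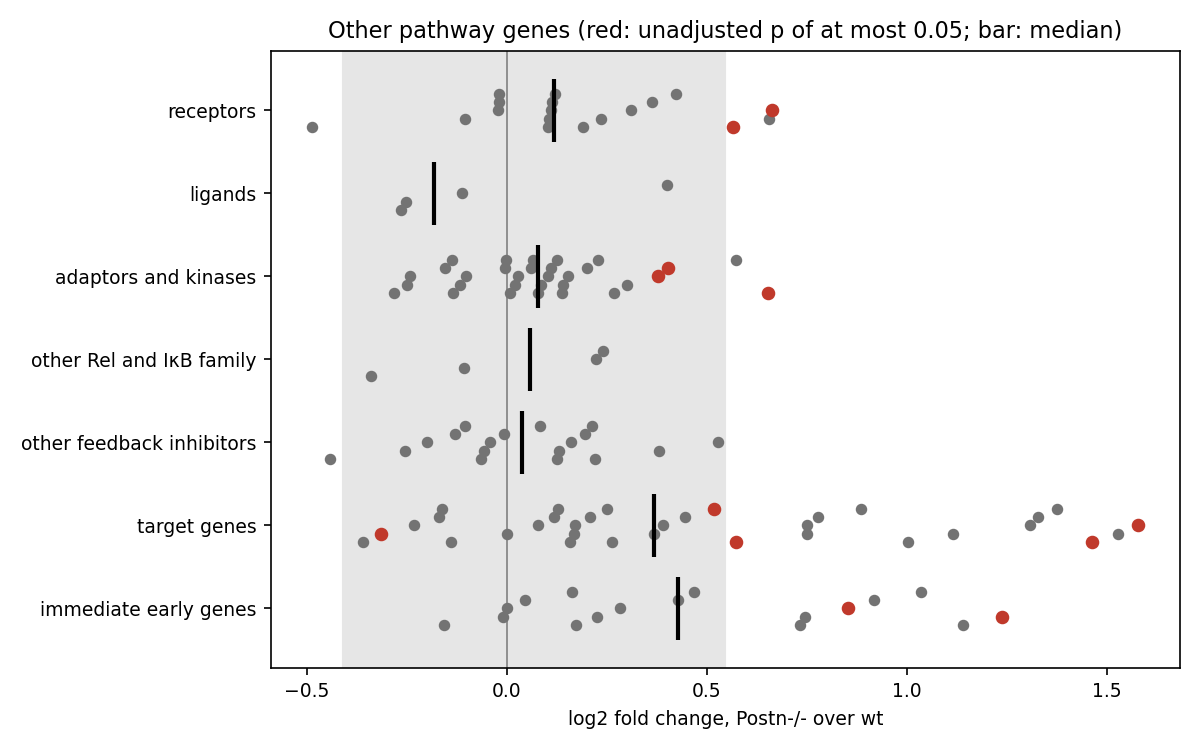
Log2 fold change, *Postn*-/- over *wt*, of each tested gene in 6 pathway lists and of immediate early genes. Red points had an unadjusted p up to 0.05 in edgeR's test, black bars are list medians and the grey band is the 5th to 95th percentile range of all genes. The medians are 0.37 for target genes and 0.43 for immediate early genes, and the other medians lie between -0.18 and 0.12.

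Markers of other cell types that the cultures could hold were also read. Of 10 macrophage markers 4 were tested, and their summed level over the 10 was 23.96 to 34.2 normalized CPM in *Postn*-/- and 12.0 to 25.2 in *wt*, with *Cx3cr1*, *Cd163* and *Fcgr1* under 1 CPM in every sample and none of the 10 at 0 throughout. Of 8 lymphocyte and granulocyte markers 0 were tested, and their sum was 0.844 to 1.95 in *Postn*-/- and 1.04 to 1.95 in *wt*. The 6 endothelial markers summed to 6.83 to 11.3 and to 5.15 to 9.68, the 5 osteoclast markers to 347 to 458 and to 316 to 416, and the 9 fibroblast and osteoblast markers to 1001 to 2289 and to 1058 to 3266. Most of the osteoclast sum was *Ctsk*, at 321 to 435 in *Postn*-/- and 294 to 390 in *wt*. *Calcr* and *Ocstamp* were under 1 CPM in every sample, so the sum does not measure osteoclasts. The 10 chondrocyte markers summed to 32002 to 39847 in *Postn*-/- and 21755 to 35854 in *wt*. Of the 10, 1 was higher in every *Postn*-/- sample, *Col2a1* (log2 fold change 0.68), which makes up much of the sum. The other 9 overlapped, where 13.6% of all genes tested had genotypes that did not overlap, 7.03% with *Postn*-/- higher. The part of these cell markers in the differences of *Nfkbia* and *Nfkb2* was not tested.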

How the data were processed

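Chondrocyte RNA of 3 *Postn*-/- and 3 *wt* mice was made into SMARTer libraries from 10 ng of total RNA and read as 50-base single ends. Per the labels and methods, the authors aligned with STAR 2.0.4b to Ensembl release 76 and counted uniquely aligned unambiguous reads with featureCounts 1.4.5. They deposited raw counts per gene for each sample. The deposited CPM scales each count to its library's total, and the deposited RPKM divides CPM by exon length in kilobases. The labels name the build mm9, but the coordinates in the tables match GRCm38. Whether counting used strand is not given in the sources used here.

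Symbols came from GENCODE M21, which matched 40340 of the 41388 identifiers (97.5%). After removal of 355 rRNA genes, 14533 genes passed a filter of CPM above 1 in 2 or more samples. Raw counts were normalized by TMM and compared without covariates by the quasi-likelihood test of edgeR 4.0.16 in R 4.3.3, with Benjamini-Hochberg adjustment. Standard errors were derived from the fold change and its F statistic, and 95% intervals were built from them. Spread within genotypes was the residual SD of log2 CPM with a prior count of 2. The script was tested on simulated data. Replicates were checked for repeated libraries, and chi-square per degree of freedom was 17.6 to 52.6 for the 15 pairs, so each was used as 1 sample. The labels do not state a batch. The 10 genes, the pathway lists and the tests were chosen with earlier results of these data known. The genes named were the 10, every list gene with an unadjusted p up to 0.05 and up to 5 tested genes with the highest level per kilobase in each list. *Tnf*, *Il1b*, *Btrc*, *Fbxw11*, *Saa3*, *Cxcl5*, *Fos*, *Egr1* and the cell type markers lie outside this rule and were named with their values seen. Shared sequence was the share of 50-base words of a gene's transcripts found in those of other genes. Alternatives were DESeq2 1.42.0, the voomWithQualityWeights model of limma 3.58.1 without and with 2 surrogate variables (sva 3.50.0), other normalizations and filters, a robust fit, a replicate block and each sample left out in turn. Experiments other than RNA-seq were not analysed here.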

Additional observations from a re-analysis of the deposited data

How the results depend on the processing

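The log2 fold changes of *Nfkbib* (0.10 to 0.35) and *Tnfaip3* (0.15 to 0.56) kept their sign in all 15 alternatives run for each. Those of *Nfkbia* (0.48 to 0.55) and *Nfkb2* (0.55 to 0.79) could not turn when a sample was left out, since their genotypes do not overlap. In these alternatives 0 of the 9 genes other than *Nfkbia* passed the adjusted threshold by edgeR, DESeq2 or limma. The adjusted p of *Nfkb2* ran from 0.292 to 0.983 over these alternatives. The other genes changed sign only when a sample was left out, where the log2 fold change ran from -0.20 to 0.0796 for *Nfkb1*, -0.12 to 0.0182 for *Rela*, -0.0086 to 0.17 for *Relb*, -0.14 to 0.0093 for *Nfkbie*, -0.18 to 0.63 for *Nfkbiz* and -0.0762 to 0.0044 for *Ikbkb*. With a sample left out, 1 to 2 of the 9 genes had an unadjusted p up to 0.05, against 2.98% to 8.71% of all genes. Genotypes did not overlap for 2 to 4 of the 10, which include *Nfkbia*, picked for this, against 19.3% to 27.2% of all genes. The count of other pathway genes at an unadjusted p up to 0.05 was 18 of 123 without a filter on low counts, where 123 rather than 108 were tested and 5.24% of all genes reached it, 7 of 108 with voomWithQualityWeights against 9.2% of all genes, 15 of 108 with surrogate variables added against 12.9%, and 6 to 11 with a sample left out.

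Over all genes, 1797 of 34295 had an unadjusted p up to 0.05 without a filter (5.24%), 1882 of 14533 with surrogate variables (12.9%) and 425 to 1257 with a sample left out, the lowest without *Postn*-/- replicate 3. At an adjusted p up to 0.05 there were 10 by DESeq2, 9 without a filter, 1 with upper quartile normalization, 1 with voomWithQualityWeights, 0 with CPM above 1 required in all 6 samples and 1 to 2 with a sample left out. The causes were not tested. Same-numbered samples are different mice, and their deviations from the group means correlated at 0.082, 0.155 and 0.143 across genes for replicates 1, 2 and 3, and those of differently numbered samples at -0.13 to 0.014. Every sample thus correlated best with its own number, a hint from the data and not the design, and since 1 of the 3 values was below 0.1 the number was not taken as a pairing. These correlations are not independent of each other, because they are taken from the same group means. With the replicate block 1188 genes (8.17%) had an unadjusted p up to 0.05 in edgeR, against 6.3% without it. Of the other pathway genes 12 of 108 did. At the adjusted threshold 1 gene passed with the block, and the log2 fold changes of *Nfkb2* and *Nfkbia* were 0.66 and 0.51. The length chosen after seeing the data moved the level of *Ikbkb* from 3.05 to 14.6 normalized CPM per kilobase, *Relb* from 1.398 to 2.46 and *Tnfaip3* from 0.323 to 0.527. With 3 samples per genotype an exact permutation test of one gene cannot go below p = 0.1, and *Tnfaip3*, *Nfkbie* and *Relb*, with at most 137 reads per sample, are limited by depth as well.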

Other observations

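Immediate early genes, which share growth factor and stress inputs with NF-κB, were also read. Of 20 genes 17 were tested, 14 with a positive and 3 with a negative log2 fold change, *Postn*-/- over *wt*, and the median was 0.43, beside 7376 positive and 7157 negative and a median of 0.0042 over all genes tested. The genotypes did not overlap for 2 of the 17, a share below the 13.6% of all genes tested, and the same 2 had an unadjusted p up to 0.05 in edgeR's quasi-likelihood test, against 6.3% of all genes. *Junb*, a component of the AP-1 factor that often acts beside NF-κB, was at 9.48, 16.3 and 9.67 normalized CPM in *Postn*-/- against 3.11, 8.46 and 3.50 in *wt*. Every *Postn*-/- sample was above every *wt* sample, with a log2 fold change of 1.24 (edgeR's quasi-likelihood test, unadjusted p = 0.0172, adjusted p = 0.717). The orphan nuclear receptor *Nr4a1* was at 5.75, 4.88 and 7.86 in *Postn*-/- against 3.27, 2.94 and 4.03 in *wt*, again without overlap (log2 fold change 0.85, adjusted p = 0.717 from edgeR's test). The most abundant genes of the list per length, which do not include *Junb* and *Nr4a1*, overlapped between genotypes. Their log2 fold changes were 0.47 for *Btg2*, 0.28 for *Dusp1*, 0.17 for *Zfp36*, 0.05 for *Klf6* and -0.0007 for *Atf3*. *Fos* was at 4.501, 24.5 and 26.5 in *Postn*-/- against 10.03, 12.7 and 4.31 in *wt*, and *Egr1* at 3.30, 30.4 and 25.97 against 15.4, 8.01 and 3.50, so *Postn*-/- replicates 2 and 3 were high and *Postn*-/- replicate 1 was low. *Fos* and *Egr1* were named after their values were seen.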
